A study of Rattus norvegicus with 6 samples.

Results

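Potassium channel subunits were examined in the ventral hippocampus of aged and adult rats. They were taken by gene symbol, as every row of the count table whose symbol is Kcn followed by letters and a closing number, except the inward rectifier genes Kcnj8 and Kcnj13. The rule gave 91 of the table's 22601 genes and used no measured value. The aged group held 3 rats at 22 months and the adult group 3 rats at 4 months. All were male rats of the outbred Sprague Dawley strain, and the labels give no treatment. Each group was drawn at random from 10 rats that had been through the Morris water maze, a test of spatial memory, and each of the 6 RNA sequencing libraries came from a separate animal. Pieces of whole tissue were sequenced, so every value is a mixture over cell types, in which fewer cells of a type and less RNA per cell cannot be told apart.

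Potassium channels let potassium leave a cell, which brings the membrane potential back down after an action potential and sets how readily a neuron fires. Voltage-gated channels are built from pore subunits joined by auxiliary subunits that set their gating and their place in the membrane. Calcium- and sodium-activated channels respond to ions that enter during firing, while inward rectifiers and leak channels shape the resting potential. In the hippocampus, Kv4 channels with their KChIP partners carry the A-type current of pyramidal cell dendrites, Kv7 channels carry the M-current that muscarinic receptors suppress, and inward rectifiers of astrocytes take up potassium released by active neurons.

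Library totals lay between 12476758 and 15400405 counts in aged rats and between 14637811 and 15689921 counts in adult rats. Hippocampal excitatory neurons were represented in all 6 libraries. Their 4 markers summed to between 3544 and 4610 CPM (counts scaled to library size with TMM) in aged rats and between 3730 and 5572 CPM in adult rats. The 5 choroid plexus markers summed to 2115 CPM in adult replicate 1 and to between 5.13 and 70.9 CPM in the other 5 libraries, with Otx2 at 0 counts in all 6. The 5 oligodendrocyte markers summed to between 6243 and 8392 CPM in aged rats and between 10729 and 16142 CPM in adult rats. The 6 liver markers summed to between 25.4 and 242 CPM in aged rats and between 24.0 and 489 CPM in adult rats. Their part in the results on channel genes was not tested.

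Of the 91 subunit genes, 75 had enough counts to be tested for age and 16 did not. Kcna10, Kcne1, Kcnk18 and Kcnmb3 had 0 counts in all 6 libraries, where 3 counts would be between 0.191 and 0.240 CPM of the library total. The other 12 were Kcna7, Kcne3, Kcng3, Kcnh5, Kcnj1, Kcnk5, Kcnk6, Kcnk7, Kcnk15, Kcnq1, Kcnu1 and Kcnv2. The leak channel gene Kcnk15 had 0, 1 and 2 counts in aged replicates 1 to 3 and 7, 8 and 3 counts in adult replicates 1 to 3. Kcnv2, whose subunit forms no channel alone, had 11, 3 and 0 counts in aged rats and 0 counts in each adult rat. These low counts were not compared further.

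Auxiliary subunits of voltage-gated channels (genes Kcnab, Kcnip and Kcne) held the largest class share of subunit transcripts in each library. By FPKM, a level scaled by gene length so that genes can be set side by side, the 12 auxiliary genes made up between 27.2% and 29.2% of summed subunit FPKM in aged rats and between 28.4% and 30.7% in adult rats. The largest part of this in each library was 1 gene, Kcnab2. Its part was smallest in aged replicate 2, at 104 of 217 FPKM. It held 104 to 161 of the class's 217 to 257 FPKM in aged rats and 126 to 174 of 211 to 248 FPKM in adult rats. The order also depends on the classes used, since silent, Kv7 and EAG family subunits were counted apart from the voltage-gated pore genes. The 17 voltage-gated pore genes of the Kv1 to Kv4 families (Kcna to Kcnd) made up 19.3% to 21.4% in aged rats and 19.7% to 20.6% in adult rats. Calcium- and sodium-activated channels held 11.3% to 14.8% in aged rats and 12.7% to 13.5% in adult rats. Inward rectifiers held 10.9% to 11.5% in aged rats and 9.30% to 12.6% in adult rats. The share of every class overlapped between the ages, as did the summed FPKM of every class. Over all 91 genes the FPKM summed to 880, 757 and 837 in aged replicates 1 to 3 and to 698, 852 and 809 in adult replicates 1 to 3.

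The most abundant subunits by FPKM included auxiliary genes of Kv1, BK and Kv4 channels. Kcnab2, a Kv beta subunit that binds Kv1 channels and helps place them on axons, was the most abundant subunit, at 134 ± 28.4 FPKM in aged rats and 146 ± 24.7 FPKM in adult rats (SD, n = 3 each). Kcnmb4, the main brain auxiliary subunit of the BK channel, stood at 64.6 ± 9.74 FPKM in aged rats and 68.9 ± 7.78 FPKM in adult rats. Kcnip3, which encodes a KChIP partner of Kv4 channels, stood at 51.9 ± 15.0 FPKM in aged rats and 38.0 ± 15.0 FPKM in adult rats, and its ages overlapped.

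Kcnj9, Kcnh3, Kcnk1 and Kcnv1 had the highest means of the inward rectifiers, the EAG family, the leak channels and the silent subunits. Kcnj9, a subunit of the G protein-gated inward rectifiers that inhibitory receptors open, stood at 27.4 ± 4.81 FPKM in aged rats and 26.1 ± 9.65 FPKM in adult rats. Kcnh3, an ELK-type channel of forebrain neurons, stood at 24.3 ± 2.36 FPKM in aged rats and 21.6 ± 4.16 FPKM in adult rats. Kcnk1, a leak channel found in astrocytes and neurons, stood at 18.1 ± 2.98 FPKM in aged rats and 17.5 ± 1.65 FPKM in adult rats. The values of each of these 3 genes overlapped between the ages. Kcnv1, a silent subunit that changes the gating of Kv2 channels, stood at 16.7 ± 5.32 FPKM in aged rats and 13.95 ± 2.25 FPKM in adult rats.

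**Figure D1:**
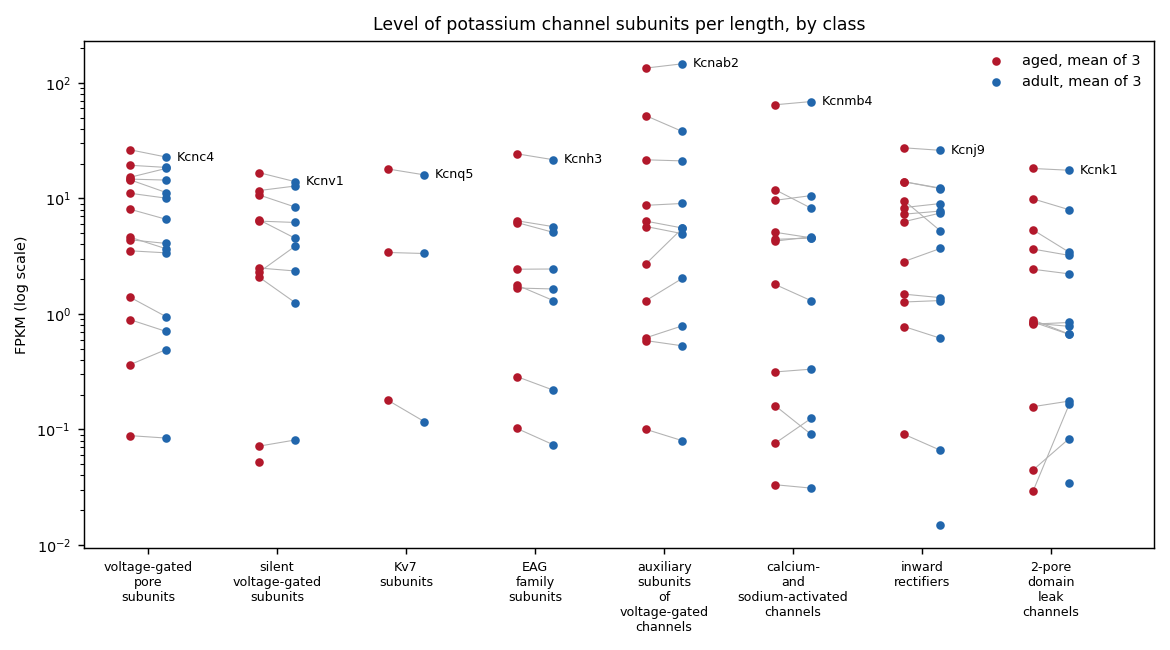
Mean FPKM of 87 potassium channel subunits in aged (left point of each pair, n = 3) and adult rats (right point, n = 3) on a log axis, grouped by class, with the most abundant gene drawn in each class named. Lines join the means of a gene, and means of 0 are not drawn, so the 4 of these genes at 0 counts in all 6 libraries show no point. Kcnab2 lies highest of all, and every class spans from a leading gene to genes far lower.

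No subunit was called different between the ages. Of 75 subunits tested with edgeR's quasi-likelihood test, 0 passed an adjusted p under 0.05 (Benjamini-Hochberg over 14588 genes, smallest adjusted p of a subunit 1.00), where the same was true of 0% of all genes tested, while DESeq2 called 0 subunits and 31 of 14588 genes, and limma-voom called 0 subunits and 0 genes. At an unadjusted p under 0.05 there were 3 subunits, 1 higher and 2 lower in aged rats, where 3.45% of all genes tested reached that level, so the count lies near the background. By direction, 1.18% of all genes were higher and 2.27% lower at that level. That count was 6 without aged replicate 2 (4.38% of all genes in the same fit), 1 without aged replicate 3 (3.60%), 7 without adult replicate 2 (5.22%) and 0 when adult replicate 3 was dropped (2.78%). DESeq2 and limma-voom each put 4 subunits at an unadjusted p under 0.05, with 3.40% of all genes there in DESeq2 and 3.41% in limma-voom. The 95% interval of the log2 fold change lay within a 2-fold difference either way for 44 of the 75 subunits (58.7%, against 75.9% of all genes tested) and within a 1.5-fold difference for 15.

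The tested subunits leaned slightly to higher values in aged rats. The fitted log2 fold change, aged minus adult, was above 0 in 51 of 75 subunits, against 49.5% of all genes tested, and its median was 0.12 over subunits and -0.0022 over all genes. No test was made of this lean. The subunits share the same 6 libraries, and the median was 0.036 without adult replicate 1 (42 of 76 above 0, against 51.6% of all genes). It was 0.27 when adult replicate 2 was dropped (55 of 75 above 0, against 48.7%). Without aged replicate 1, 39 of 76 were above 0, against 51.8% of all genes. By class, the values above 0 numbered 12 of 15 voltage-gated pore genes (median 0.13), 6 of 8 silent subunits (0.16), 3 of 4 Kv7 genes (0.070) and 6 of 7 EAG family genes (0.15). They numbered 5 of 10 auxiliary genes (median -0.027), 4 of 10 calcium- and sodium-activated channel genes (-0.070), 7 of 12 inward rectifiers (0.065) and 8 of 9 leak channels (0.17).

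**Figure D2:**
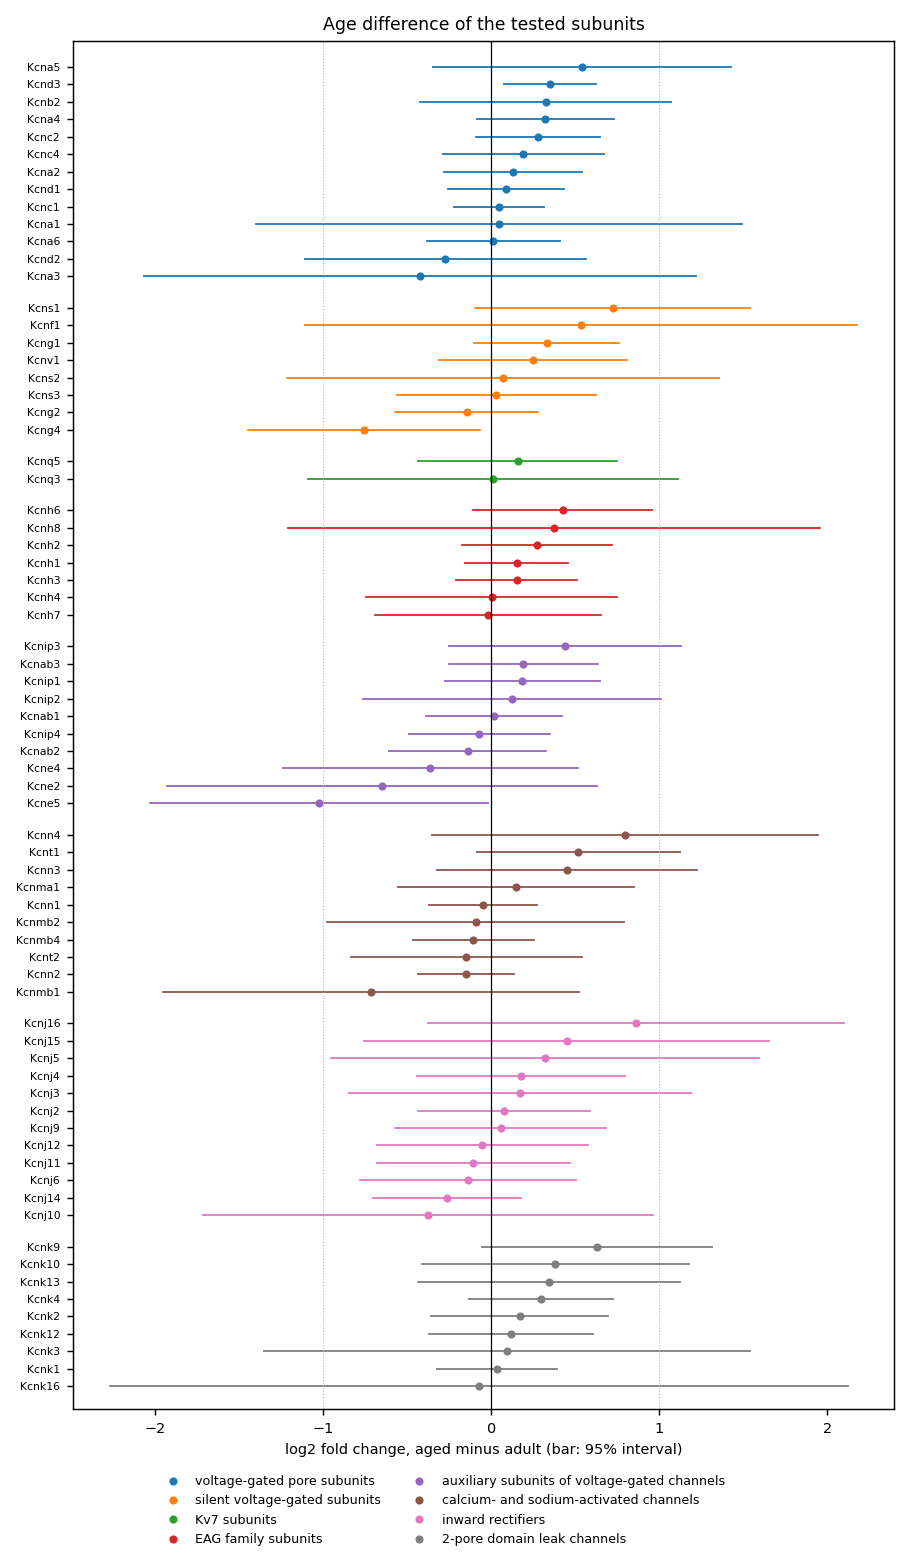
Log2 fold change, aged minus adult, of 71 tested subunits by class (points) with 95% intervals (bars) from edgeR's quasi-likelihood fit, and dotted lines at a 2-fold difference. Intervals exclude 0 for Kcnd3, Kcng4 and Kcne5 before adjustment, and none passed after it.

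The 3 aged values lay apart from the 3 adult values in 5 subunits, 4 with aged rats above and 1 with aged rats below, where 7.56% of all genes tested did so (3.13% with aged rats above and 4.43% with aged rats below). The 4 were Kcnd3, Kcna4, Kcnh6 and Kcnn4, and the 1 below was Kcne5. Kcnn4 lies outside the rule by which genes were named and was chosen after its values were seen. Leaving out a library raised this count for subunits and for all genes alike, by construction of the smaller groups, to between 6 (without adult replicate 3, where 13.9% of all genes lay apart) and 22 (without adult replicate 2, 20.4% of all genes). It was 10 without aged replicate 1 (14.6% of all genes), 16 without aged replicate 2 (20.1%), 8 without aged replicate 3 (17.4%) and 8 without adult replicate 1 (16.6%).

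Kcnd3, which encodes the Kv4.3 pore subunit of A-type channels, stood at 91.1, 103.9 and 99.7 CPM in aged replicates 1 to 3, against 85.4, 73.6 and 72.2 CPM in adult replicates 1 to 3. All 3 aged rats lay above every adult rat, and the nearest values were those of replicate 1 of each age. Its log2 fold change was 0.35 ± 0.12 (SE), and edgeR gave it an unadjusted p of 0.0179 and an adjusted p of 1.00. The log2 fold change lay between 0.31 and 0.44 when each library was left out in turn. Its partner in dendritic A-type channels, the Kv4.2 gene Kcnd2, stood at 86.8, 37.8 and 58.5 CPM in aged rats and at 44.5, 70.0 and 107 CPM in adult rats. Those values overlapped widely, with a log2 fold change of -0.27 ± 0.36 and a 95% interval from -1.11 to 0.56. The FPKM of Kcnd3 was 0.618, 1.62 and 1.00 times that of Kcnd2 in aged replicates 1 to 3 and 1.13, 0.620 and 0.398 times in adult replicates 1 to 3.

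Kcng4, which encodes a silent subunit that joins Kv2 channels, had a lower mean in aged rats and was not called. Its p in edgeR was under 0.05 before adjustment only. It had 14.9, 8.997 and 9.20 CPM in aged replicates 1 to 3, against 12.4, 24.7 and 18.9 CPM in adult replicates 1 to 3. The groups overlapped, since aged replicate 1 lay above adult replicate 1. The log2 fold change was -0.76 ± 0.30, at an unadjusted p of 0.0357 and an adjusted p of 1.00 in edgeR, and it was -1.02 without aged replicate 1 and -0.50 without adult replicate 2. Kcne5, a single-pass auxiliary subunit, had 2.00, 2.17 and 0.876 CPM in aged replicates 1 to 3, against 2.25, 4.36 and 3.60 CPM in adult replicates 1 to 3. The gap between aged replicate 2 and adult replicate 1 was narrow, and the lowest library held 14 counts. Its log2 fold change was -1.02 ± 0.44 (edgeR, unadjusted p = 0.0470, adjusted p = 1.00).

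The bases before the annotated start of these 3 genes are given because they had the smallest p of all tested subunits. The sequences come from RefSeq on build GRCr8, which is not the build named in the submitters' processing notes, and run 250 bases up to the start on the strand of the gene. Capitals mark the GC box GGGCGG, searched on both strands, which 32.4% of 27457 promoter windows of that length hold. The windows are chr2:195626066-195626315 on the plus strand, chrX:110727850-110728099 on the minus strand and chr19:64597889-64598138 on the minus strand.
Kcnd3: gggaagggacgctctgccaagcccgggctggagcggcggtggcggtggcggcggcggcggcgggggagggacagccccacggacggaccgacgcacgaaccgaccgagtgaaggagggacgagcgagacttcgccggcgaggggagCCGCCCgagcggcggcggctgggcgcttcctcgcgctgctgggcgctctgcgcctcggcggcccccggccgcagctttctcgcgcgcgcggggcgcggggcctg
Kcne5: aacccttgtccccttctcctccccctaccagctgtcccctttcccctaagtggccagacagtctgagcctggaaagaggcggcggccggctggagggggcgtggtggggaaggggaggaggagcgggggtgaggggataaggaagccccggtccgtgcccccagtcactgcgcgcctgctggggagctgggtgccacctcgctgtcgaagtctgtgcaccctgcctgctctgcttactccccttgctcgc
Kcng4: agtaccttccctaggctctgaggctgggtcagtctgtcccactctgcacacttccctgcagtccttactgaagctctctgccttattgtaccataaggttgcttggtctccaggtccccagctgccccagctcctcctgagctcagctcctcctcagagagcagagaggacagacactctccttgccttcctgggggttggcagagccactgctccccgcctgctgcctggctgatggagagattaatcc
The GC box letters occurred at 1 place in the window of Kcnd3 and at 0 places in the windows of Kcne5 and Kcng4. Of the 91 subunit genes 61 had such a window, so their sequences were not summarised over the set.

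Among voltage-gated pore genes, Kcna4, which encodes the Kv1.4 subunit of axonal A-type channels, stood at 33.6, 24.4 and 23.8 CPM in aged rats and at 19.5, 22.9 and 23.2 CPM in adult rats. The groups lay apart by a gap of under 1 CPM, with a log2 fold change of 0.32 ± 0.18. Kcnc2, a Kv3 gene of fast-spiking interneurons, stood at 82.4, 59.3 and 67.2 CPM in aged rats and at 56.6, 65.8 and 49.9 CPM in adult rats, and the groups overlapped. Kcnc1, another Kv3 gene, varied little between libraries, at 91.4 ± 9.65 CPM in aged rats and 88.5 ± 3.54 CPM in adult rats. Its 95% interval ran from -0.22 to 0.32 on the log2 scale.

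The ERG-type gene Kcnh6 stood at 5.92, 5.94 and 6.82 CPM in aged rats, against 5.12, 4.74 and 4.07 CPM in adult rats. All 3 aged rats lay above every adult rat, and the log2 fold change was 0.42 ± 0.23 with an unadjusted p of 0.105 in edgeR's quasi-likelihood test. Kcnn4, the intermediate-conductance calcium-activated channel known from blood cells and microglia, stood at 0.932, 0.803 and 0.688 CPM in aged rats, against 0.273, 0.442 and 0.666 CPM in adult rats. Its libraries held between 4 and 14 counts each. The 95% interval of its log2 fold change ran from -0.35 to 1.94.

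**Figure D3:**
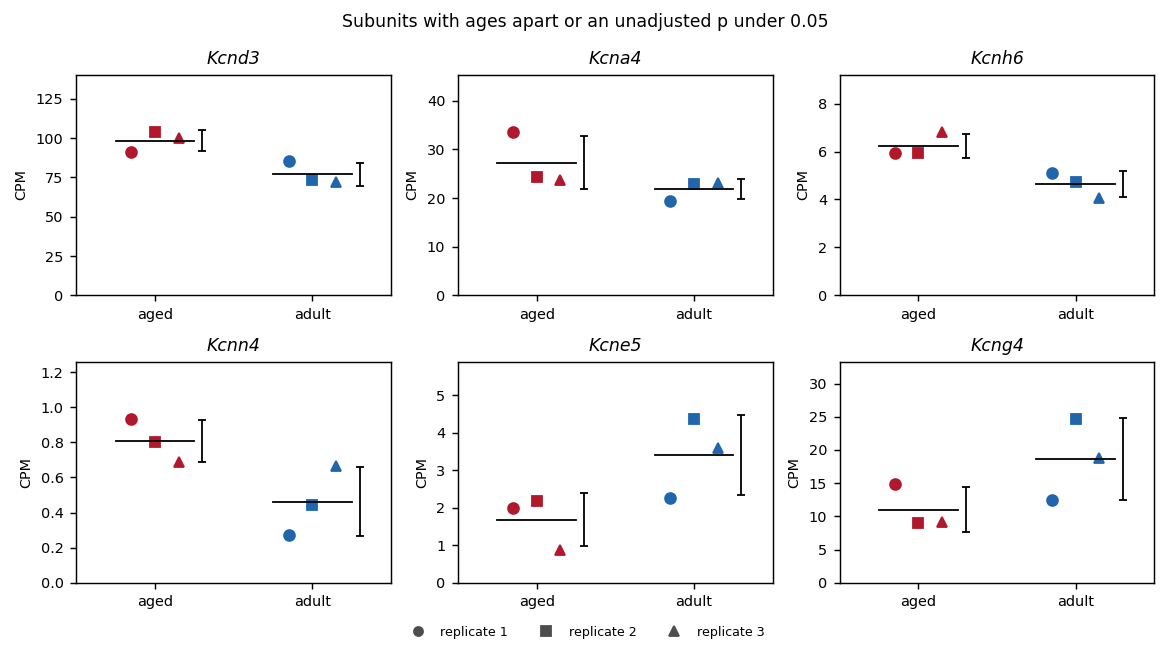
CPM of 6 subunits in each library, with aged rats left and adult rats right, a line at each mean, a bar for 1 SD and a symbol for each replicate number. The ages lie apart in Kcnd3, Kcna4, Kcnh6, Kcnn4 and Kcne5, and aged replicate 1 lies above adult replicate 1 in Kcng4.

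Kcnq3, a pore subunit of M-current channels, stood at 26.0, 6.99 and 25.8 CPM in aged rats and at 11.2, 23.2 and 24.1 CPM in adult rats. It was low in aged replicate 2 and adult replicate 1 and stood at 23.2 to 26.0 CPM elsewhere. Kcnq5, another M-current gene of the hippocampus, stood at 89.8, 44.8 and 69.7 CPM in aged rats and at 76.4, 55.7 and 51.3 CPM in adult rats, also with overlap.

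Among channels opened by calcium or sodium, Kcnt1, which encodes a sodium-activated channel, stood at 62.6, 120.4 and 92.3 CPM in aged rats and at 68.6, 77.1 and 46.5 CPM in adult rats. The log2 fold change was 0.52 ± 0.26 with all libraries, 0.28 when aged replicate 2 was dropped and 0.34 when adult replicate 3 was dropped. Kcnma1, the pore of the BK channel, stood at 36.7, 18.6 and 27.3 CPM in aged rats and at 16.5, 32.9 and 25.2 CPM in adult rats. It was lowest within its age in the same pair of libraries as Kcnq3. The BK auxiliary gene Kcnmb4 varied less, with 67.1, 75.2 and 53.3 CPM in aged rats and 61.2, 76.1 and 73.2 CPM in adult rats. Kcnn2, the small-conductance channel that follows calcium entry in pyramidal cells, stood at 46.5, 45.3 and 43.1 CPM in aged rats and at 55.7, 44.0 and 50.2 CPM in adult rats, with a 95% interval of the log2 fold change from -0.44 to 0.13.

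Among inward rectifiers, Kcnj6, a G protein-gated subunit, stood at 147, 99.0 and 161 CPM in aged rats and at 122, 111 and 215 CPM in adult rats. The highest value was that of adult replicate 3, and the log2 fold change was -0.14 ± 0.28. Kcnj9 stood at 71.1, 50.5 and 67.1 CPM in aged rats and at 36.2, 79.6 and 65.8 CPM in adult rats, also with overlap. Kcnj14, another inward rectifier, averaged 17.0 ± 2.12 CPM in aged rats and 20.5 ± 4.21 CPM in adult rats.

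The genes of astrocyte channels had their extremes in different libraries. Kcnj10, which encodes the Kir4.1 channel of astrocytes, stood at 17.9, 6.02 and 13.1 CPM in aged rats and at 8.47, 31.5 and 8.06 CPM in adult rats, with its highest value in adult replicate 2. Its partner Kcnj16 stood at 36.3, 57.0 and 36.1 CPM in aged rats and at 42.2, 22.4 and 6.60 CPM in adult rats, with its highest value in aged replicate 2 and its lowest in adult replicate 3. The log2 fold change of Kcnj16 was 0.86 ± 0.54 with all libraries, 0.43 when adult replicate 3 was dropped and 1.58 when adult replicate 1 was dropped. The sum of the 5 astrocyte markers moved less between libraries, at 2112 to 2490 CPM in aged rats and 2084 to 2616 CPM in adult rats. Single markers are not described by that sum, and Slc1a3 stood at 455, 772 and 434 CPM in adult replicates 1 to 3. Slc1a3, Gja1 and Aldh1l1 were highest in adult replicate 2, as Kcnj10 was, while Gfap was highest in aged replicate 2 and Aqp4 in adult replicate 1. The part of astrocyte markers in the channel values was not tested.

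Among leak channels, Kcnk9, the acid-sensitive TASK-3 channel, stood at 30.2, 25.1 and 34.9 CPM in aged rats and at 21.0, 26.3 and 11.0 CPM in adult rats. The groups overlapped between aged replicate 2 and adult replicate 2. The log2 fold change was 0.63 ± 0.30 (edgeR, unadjusted p = 0.0664) with all libraries and 0.35 when adult replicate 3 was dropped. Kcnk1 stood at 52.5, 67.5 and 49.1 CPM in aged rats and at 55.6, 48.7 and 60.9 CPM in adult rats, and its 95% interval ran from -0.32 to 0.39 on the log2 scale.

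Among silent subunits, Kcns1 stood at 8.12, 5.30 and 9.39 CPM in aged rats and at 4.78, 6.26 and 2.80 CPM in adult rats. The log2 fold change was 0.72 ± 0.35 with all libraries and 0.47 when adult replicate 3 was dropped. Kcng1 averaged 45.9 ± 10.9 CPM in aged rats and 36.6 ± 4.11 CPM in adult rats, and Kcng2 averaged 80.6 ± 8.63 CPM in aged rats and 89.3 ± 21.3 CPM in adult rats. Both join Kv2 channels, and the ages overlapped in both.

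Among auxiliary subunits, Kcnab2 stood at 974, 620.3 and 788 CPM in aged rats and at 749, 814 and 1061 CPM in adult rats, with overlap and a log2 fold change of -0.14 ± 0.20. Kcne2, an auxiliary subunit also made by choroid plexus epithelium, stood at 2.60, 3.21 and 4.26 CPM in aged rats and at 10.4, 2.72 and 2.67 CPM in adult rats. The high value was that of adult replicate 1, where the choroid plexus markers summed to 2115 CPM. Without that library the log2 fold change of -0.65 turned to 0.33. Kcne4, of the same family, averaged 2.24 ± 0.610 CPM in aged rats and 2.88 ± 0.965 CPM in adult rats. All 3 tested Kcne genes had lower fitted values in aged rats, and Kcne2 did not without adult replicate 1.

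Lists of channel genes by site or role gave no call. In the dendritic A-type complex, of Kcnd2, Kcnd3 and the 4 KChIP genes, 4 of 6 were above 0 in log2 fold change (median 0.15). In that complex 1 gene, Kcnd3, had an unadjusted p under 0.05 in edgeR, where 3.45% of all genes tested did so. Of 7 axonal channel genes 6 were above 0 (median 0.046), against 49.5% of all genes tested. Of 4 genes of fast-spiking interneurons 4 were above 0 (median 0.047). None of these had an unadjusted p under 0.05 in edgeR. Of 5 GABAergic interneuron markers 4 were above 0, while Pvalb stood at -0.36. The part of these markers in the channel values was not tested. Partner proteins that bind channels had 8 of 15 tested genes above 0 (median 0.0074), against a median of -0.0022 over all genes. Lrrc55, an auxiliary protein of BK channels, was the 1 of these 15 with an unadjusted p under 0.05, beside the same 3.45% of all genes. It had 16.6, 12.4 and 15.1 CPM in aged rats, against 18.4, 20.9 and 27.4 CPM in adult rats. All 3 aged rats lay below every adult rat, as was true of 4.43% of all genes tested. Its log2 fold change was -0.59 ± 0.20 (edgeR, unadjusted p = 0.0181, adjusted p = 1.00). Of the hyperpolarisation-activated channel genes, which carry a mixed cation current, and their partner Pex5l, 4 of 5 were above 0 (median 0.24). Values above 0 were also found in 2 of 3 astrocyte channel genes (0.033) and 2 of 3 tested channel genes known from microglia (0.34).

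The subunits differed between libraries of the same age more often than genes at large. In 34 of 75 subunits (45.3%) the highest library of an age was at least 2-fold above the lowest of that age, against 22.4% of all genes tested. Restricted to genes averaging 10 CPM or more, the shares were 14 of 50 subunits (28.0%) and 8.02% of all genes. The median CPM of the subunits (21.3) was close to that of all genes (25.2). These shares are a description with no test.

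The lowest library of a subunit was adult replicate 1 in 25 of 75 (33.3%), adult replicate 3 in 19 (25.3%) and aged replicate 2 in 15 (20.0%), against 16.5%, 16.6% and 18.9% of all genes tested. In 23 subunits (30.7%) aged replicate 2 was the lowest aged library and adult replicate 1 the lowest adult library, against 17.4% of all genes. This pair was picked after the values had been seen. They came from all 8 classes, with Kcnk10 alone from the leak channels. In 6 of them the mean of the pair was under 0.5 times the mean of the other 4 libraries.

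Those 6 were Kcna3, Kcna1, Kcns2, Kcnq3, Kcnh8 and Kcnj3, named here because of that ratio. For Kcna3 it rests on 2 counts in aged replicate 2 and 5 in adult replicate 1, and for Kcnh8 on 6 counts in each. Kcnh8 was also low in adult replicate 3, with 7 counts. Kcna1, the Kv1.1 subunit of axons and nerve endings, stood at 8.12, 1.45 and 8.70 CPM in aged rats and at 3.07, 9.29 and 5.40 CPM in adult rats. Kcnj3, a G protein-gated subunit that joins Kcnj6 and Kcnj9, stood at 38.5, 12.7 and 25.03 CPM in aged rats and at 11.7, 31.1 and 24.99 CPM in adult rats. Neither separated the ages. Of the 4 excitatory neuron markers, 2 were lowest within each age in that same pair. Slc17a7, a vesicular glutamate transporter, stood at 1338, 762 and 981 CPM in aged replicates 1 to 3 and at 681, 1092 and 1143 CPM in adult replicates 1 to 3. Camk2a, a kinase of excitatory neurons, stood at 367, 149 and 305 CPM in aged rats and at 102, 395 and 203 CPM in adult rats. The other 2, Nrgn and Neurod6, were lowest in adult replicate 2 among adult rats, though Neurod6 was lowest in aged replicate 2 among aged rats. Of 5 general neuron markers, Rbfox3 alone was lowest within each age in the pair. It stood at 86.3, 39.2 and 70.3 CPM in aged rats and at 31.4, 72.8 and 70.2 CPM in adult rats. Snap25, Syt1 and Stmn2 were lowest in adult replicate 2 among adult rats. Among aged rats Snap25 was lowest in aged replicate 2, at 2099 CPM against 2102 CPM in aged replicate 3. Eno2 was lowest in adult replicate 1 among adult rats but highest in aged replicate 2 among aged rats. Choroid plexus markers were high in adult replicate 1, and the part of neuron or choroid plexus markers in these values was not tested. In adult replicate 3 other subunits were lowest, and Kcnf1, a silent subunit gene chosen for its spread, stood at 22.0, 16.3 and 14.1 CPM in aged rats and at 8.67, 25.7 and 1.80 CPM in adult rats. The 5 skeletal muscle markers summed to 344 CPM in adult replicate 3 and to 32.2 to 115 CPM elsewhere, and their part in these values was not tested.

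**Figure D4:**
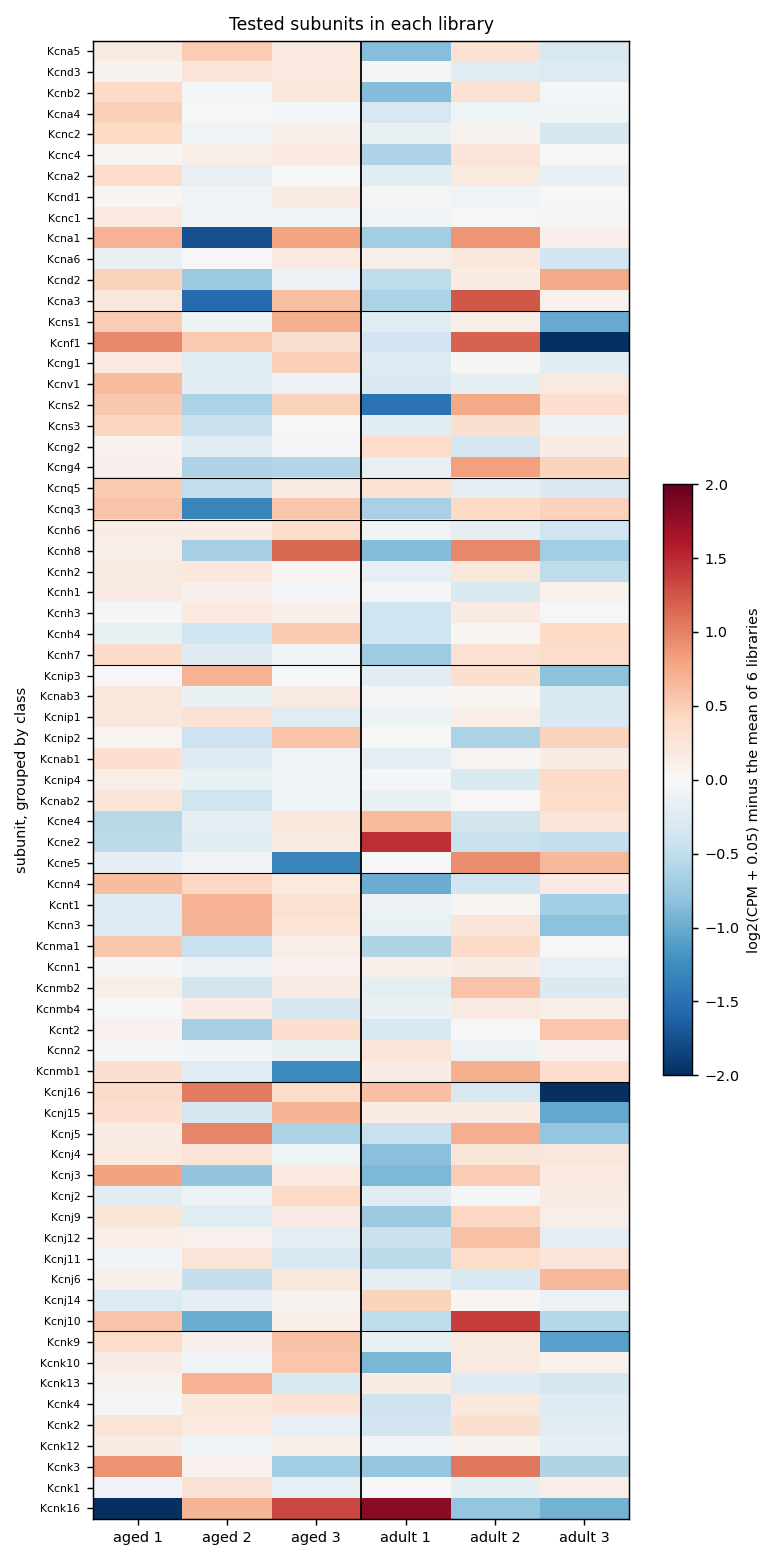
Heat map of log2(CPM + 0.05) minus the mean over 6 libraries for 71 tested subunits, with aged libraries left of the line, adult libraries right, and black lines between classes. Blue cells for Kcna1 and Kcnq3 stand in aged replicate 2 and adult replicate 1, and those for Kcnf1 and Kcnj16 in adult replicate 3.

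**Figure D5:**
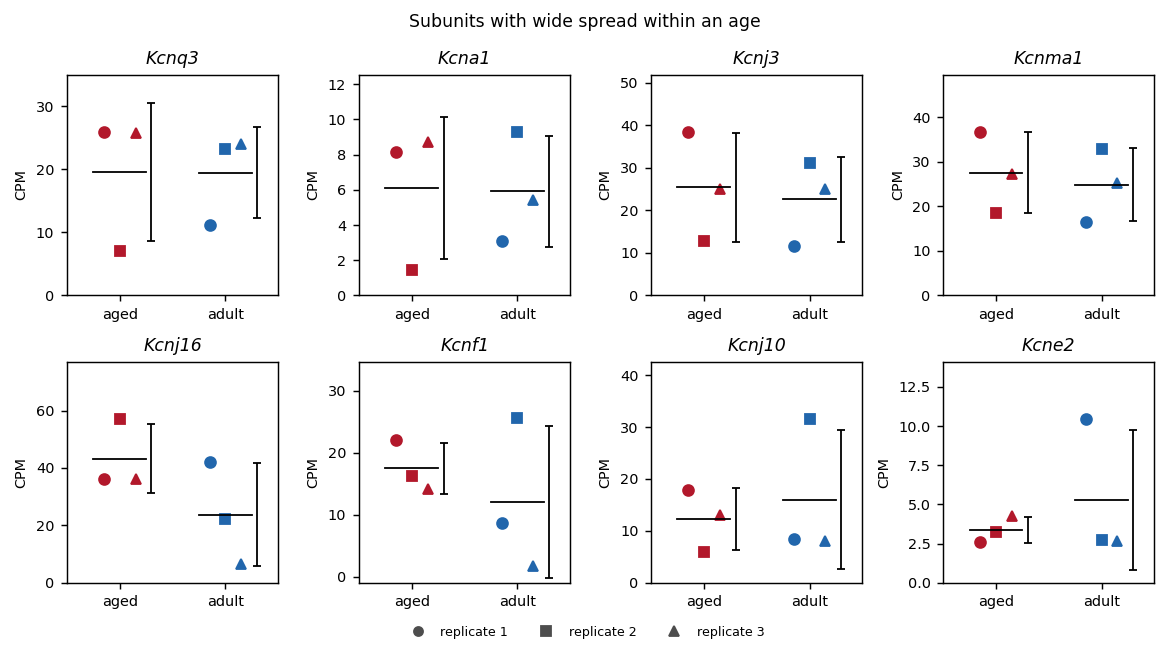
CPM of 8 subunits in each library, with aged rats left and adult rats right, a line at each mean, a bar for 1 SD and a symbol for each replicate number. The 8 were chosen for wide spread within an age. In each, the range from lowest to highest library of at least 1 age is wider than the distance between the age means.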

How the data were processed

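Ventral hippocampus RNA of 3 aged and 3 adult male rats was sequenced, 1 library per animal. The authors deposited raw counts by gene symbol for each library. They also deposited FPKM values, which equal the count over a constant length per gene and over the library total. The submitters' processing notes name the build Rnor_6.0. No source used here gives the aligner, the counting tool, the annotation or whether strand was used. Whether reads of overlapping genes were separated is therefore unknown: in the RefSeq annotation of GRCr8, which matched all 91 symbols, the loci of 34 of the 75 tested subunits overlap another gene, with exons and strand not compared, among them Kcnd3, Kcnh3 (Mcrs1), Kcnj9 (Igsf8), Kcnab2 (Nphp4) and the pair Kcnip1 and Kcnmb1.

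Of 22601 genes, 14588 passed filterByExpr. They were scaled by TMM and tested for aged minus adult with edgeR 4.0.16 (glmQLFit and glmQLFTest, two-sided) in R 4.3.3. P-values were adjusted over all genes tested by Benjamini-Hochberg, with a threshold of 0.05, and 95% intervals come from that fit. Genes were named by rule: the 8 smallest p in each direction at a mean of at least 1 CPM, the most abundant gene and the smallest p of each class, and 12 genes of known roles. Kcnip3 was not among these and was named for its level. The subunits, lists and rule were chosen with earlier results of these data known. Individual values of some subunits are not reported here. The test was checked on simulated counts with 50 genes changed at each fold. It called 10% of those changed 1.5-fold, 40% of those changed 2-fold and 96% of those changed 4-fold. Most of the genes changed 1.5-fold or 2-fold were thus missed. These shares are for all genes tested, of which 22.4% differed at least 2-fold within an age, against 45.3% of subunits. How often such differences would be called in the subunits was not tested. Alternatives were other scalings and filters, DESeq2 1.42.0, limma 3.58.1 on voom or log2 FPKM values, a replicate block and leaving out each library. Figures were drawn with matplotlib 3.10.9.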

Additional observations from a re-analysis of the deposited data

How the results depend on the processing

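No subunit was called under any of the 17 alternatives (other scalings and filters, DESeq2, limma-voom, limma on FPKM, the replicate block and leaving out each library). Over all genes, DESeq2 called 31, limma on log2(FPKM + 1) called 2, each fit without 1 adult library called 1, and the other alternatives called 0. Of 510 alternative fits of the 30 named subunits, 475 kept their direction and 35 turned it, in 15 subunits, all from values that had not passed the threshold. The number of subunits with an unadjusted p under 0.05 was 5 with no filter (3.37% of all genes), and between 0 and 7 when 1 library was left out (2.73% to 5.22% of all genes), against 3 (3.45%). The number whose ages lay apart was between 6 and 22 when 1 library was left out (13.9% to 20.4% of all genes), and the median log2 fold change was between 0.036 and 0.27. The 95% interval lay within a 2-fold difference for 44 of 75 subunits, so in the others a 2-fold difference was not resolved with 3 rats of each age.

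The replicate numbers are not stated to pair the rats. Deviations of same-numbered libraries correlated at -0.0152, -0.0570 and 0.0865, and not every library correlated best with its own number. With the replicate block, 2 subunits had an unadjusted p under 0.05 (3.21% of all genes) and the median was 0.12. Kcna1 and Kcnq3, near 0 in the main result, turned to -0.034 and -0.10 with the replicate block, to -0.12 and -0.084 with limma-voom, to -0.056 and -0.053 on log2(FPKM + 1) with or without the filter, and to -0.16 and -0.11 on log2(FPKM + 0.1).

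Left-out libraries gave the other reversals, and the lowest and highest log2 fold changes over those fits were as follows. Kcna1 ran from -0.30 to 0.53, Kcnab2 ran from -0.29 to 0.029, Kcnc1 ran from -0.026 to 0.096 and Kcnd2 ran from -0.60 to 0.097. Kcne2 ran from -0.96 to 0.33, Kcng2 ran from -0.32 to 0.028, Kcnj10 ran from -0.72 to 0.58 and Kcnj6 ran from -0.31 to 0.23. Kcnj9 ran from -0.20 to 0.30, Kcnk1 ran from -0.11 to 0.12, Kcnma1 ran from -0.097 to 0.40 and Kcnmb4 ran from -0.21 to 0.019. Kcnq3 ran from -0.26 to 0.42, Kcnq5 ran from -0.075 to 0.39 and Kcnv1 ran from -0.050 to 0.41. The causes were not tested.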
